A study of Homo sapiens with 10 samples.

Results

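The CTCF peaks of HEK-293T cells with low CGGBP1 (KD) were compared with those of HEK-293T cells with high CGGBP1 (OE). HEK-293T is a cell line from human embryonic kidney. KD cells carried shRNA against CGGBP1, from lentiviral constructs aimed at several regions of its coding sequence, and were selected with puromycin. OE cells carried a lentiviral construct that overexpresses CGGBP1 with a FLAG tag, and no puromycin step is named for them. Cells with a non-targeting shRNA (CT), also selected with puromycin, were the control, and histone marks in CT and KD and 1 input library were used here as further readouts. Each condition gave 1 CTCF library, so differences between KD and OE could not be checked in replicates and are given with no p-value. A KD peak that overlapped an OE peak by at least 1 bp, or the reverse, was called shared, and all others were called KD only or OE only. On chromosomes 1 to 22 and X, KD had 46035 peaks and OE had 45872, together 91907 of the 405081 peaks in the 13 lists of single samples. The lists hold positions and no heights or read counts, so the depth behind a peak is unknown. The study reports more mapped reads for KD than for OE, both unmasked and repeat-masked, and the part of this in the results was not tested. Intervals after a share are exact Clopper-Pearson 95% intervals over peaks, intervals of a difference are normal 95% intervals, and both cover counting error only. How far CGGBP1 was lowered or raised cannot be read from peak positions. The labels give a stricter peak threshold for KD (p of 0.0025) than for OE (p of 0.005), which cannot be told apart from the condition in these lists. For peaks called on repeat-masked reads the labelled threshold was 0.001 in both, and those lists are given beside the results as a second comparison.

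CTCF is a zinc-finger protein that binds a long GC-rich motif, acts as an insulator between regulatory regions and, with cohesin, anchors chromatin loops. CGGBP1 is a small DNA-binding protein that was found through its binding to CGG repeats, also binds interspersed repeats such as Alu and L1, and is known to restrain cytosine methylation there. CTCF occupies both single-copy sites and sites within repeats, and cytosine methylation can keep it from its motif.

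The sequences under a few exclusive peaks show the range of CTCF sites in both classes. A matrix of 14 columns, with the most frequent bases CCACCAGGGGGCAC, was learned from repeat-masked CT peaks that overlapped both KD and OE peaks, so it favours shared peaks. A site was counted on either strand where the matrix score, in log2 odds, was at least 8.3 (p below 0.0001 at the base composition of the genome). Of all 250 bp tiles of the same chromosomes, 12.1% held such a site, and of all 300 bp tiles, 14.3%. The sites below are the best-scoring ones in the widest exclusive peaks within 1 kb of the start of a protein-coding gene, taken from hg38 on the strand of the site, with the 14 matched bases in capitals and 6 bases on either side. They are shown so that strong and weak sites can be compared by eye.
PPOX, KD only, chr1:161166222-161166247, plus strand, score 12.7: ctcggtCCTGAGGAGGGCAGtgacgg
TYRO3, KD only, chr15:41557758-41557783, minus strand, score 18.4: tgagacCCAGCTGGGGGCGCccccag
ATG13 and HARBI1, KD only, chr11:46617922-46617947, minus strand, score 18.4: agcctcCCACCCGGGGGCGCtgagag
HVCN1, KD only, chr12:110704917-110704942, plus strand, score 14.7: tgttcaCCTCCAGGAGGCAGgctggg
APLN, KD only, chrX:129655676-129655701, plus strand, score 16.9: actaatCCAGCAGGGGCCGCccatca
DTWD2, OE only, chr5:118988215-118988240, plus strand, score 20.1: gactccCCGGCAGGGGGCGCcgcacc
GCLM, OE only, chr1:93909725-93909750, minus strand, score 10.1: gagaccTCACCAGGCGGAGGcggtgt
ZNF180, OE only, chr19:44500825-44500850, minus strand, score 11.0: gtctgaCAGGCAGGGGGCACccagaa
URI1, OE only, chr19:29923550-29923575, plus strand, score 9.26: ccctgcCCACAAGATAGAACtggaat
IL23A and PAN2, OE only, chr12:56334324-56334349, plus strand, score 10.0: ggcaaaGCACTAGGAGTCGCtgttgg
The 5 KD only sites scored between 12.7 and 18.4, and 4 of the 5 OE only sites scored 11.0 or less. The peak that held the OE only site with the highest score, at DTWD2, also overlapped a peak of the repeat-masked KD list.

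Longer stretches show the sequence around such sites and a kind of peak that held no site. The first 2 are up to 300 bp around the centre of the first promoter peak of each class, in order of width, that held its best site within that stretch and met no annotated exon there. The last 2 are from the widest peak without a site, under 0.5 repeated and with no exon, in the first genes named further on for many exclusive peaks. All are printed from the plus strand of hg38, with the site in capitals where there is one (at ATG13 it lies on the minus strand, so the capitals read as its complement).
ATG13, KD only, chr11:46617928-46618227: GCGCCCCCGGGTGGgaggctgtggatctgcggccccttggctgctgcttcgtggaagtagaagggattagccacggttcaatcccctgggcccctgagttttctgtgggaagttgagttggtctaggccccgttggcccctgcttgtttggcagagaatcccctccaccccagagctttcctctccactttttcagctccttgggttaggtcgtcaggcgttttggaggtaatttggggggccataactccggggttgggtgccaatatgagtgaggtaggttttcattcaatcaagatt
METTL9, OE only, chr16:21597608-21597907: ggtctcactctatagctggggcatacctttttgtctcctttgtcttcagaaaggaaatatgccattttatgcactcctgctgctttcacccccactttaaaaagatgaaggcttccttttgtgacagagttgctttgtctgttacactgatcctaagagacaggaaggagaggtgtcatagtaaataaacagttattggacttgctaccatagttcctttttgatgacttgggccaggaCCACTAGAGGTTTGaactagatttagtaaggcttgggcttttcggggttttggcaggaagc
TEAD1, KD only, chr11:12826774-12827040: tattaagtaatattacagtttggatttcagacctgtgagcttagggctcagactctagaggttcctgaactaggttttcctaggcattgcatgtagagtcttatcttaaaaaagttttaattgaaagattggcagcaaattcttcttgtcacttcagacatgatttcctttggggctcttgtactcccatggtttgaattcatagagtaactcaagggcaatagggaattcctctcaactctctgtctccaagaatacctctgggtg
GPR107, OE only, chr9:130093055-130093354: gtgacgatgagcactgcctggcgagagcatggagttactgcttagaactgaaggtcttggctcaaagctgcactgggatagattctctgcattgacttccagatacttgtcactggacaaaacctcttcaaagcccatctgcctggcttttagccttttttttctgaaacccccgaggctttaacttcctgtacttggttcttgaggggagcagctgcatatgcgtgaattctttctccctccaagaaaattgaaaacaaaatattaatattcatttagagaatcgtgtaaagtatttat
The ATG13 peak had 55.9% GC and the METTL9 peak 43.6%. The TEAD1 peak without a site had 39.7% GC with a best score of 3.18, and the GPR107 peak had 42.2% GC with a best score of 0.309. METTL9 was rank 13 in the OE only order, and ATG13 was rank 3 in the KD only order.

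KD and OE shared most of their CTCF peaks, in nearly equal parts of each list. In KD, 28451 peaks (61.8%, 61.4 to 62.2) met one from OE, and in OE, 28482 (62.1%, 61.6 to 62.5) met one from KD. The KD only class held 17584 peaks (38.2% of KD) and the OE only class 17390 (37.9% of OE). KD peaks covered 14.2 Mb and OE peaks 13.5 Mb, of which 7.62 Mb lay in both, or 37.9% of the bases covered by either. Shared peaks were the wider ones, with median widths of 312 bp in KD and 291 bp in OE, against 258 bp for KD only and 248 bp for OE only. With each list cut into 4 equal parts by width, 37.1% of the narrowest KD peaks and 80.1% of the widest were shared. The same shares in OE were 42.2% and 79.4%. In the repeat-masked lists the shared part was 76.2% for KD and 88.0% for OE, leaving 5584 KD only and 2436 OE only peaks.

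Of the shares compared, that of peaks with a CTCF motif differed most between KD only and OE only. A site was found in 7599 of the KD only peaks (43.2%, 42.5 to 43.95) and in 3285 of the OE only peaks (18.9%, 18.3 to 19.5), a difference of 24.3 percentage points (23.4 to 25.3). The shared peaks held a site in 82.2% of cases in KD and 82.0% in OE, although the matrix was learned from such peaks. The OE only share lay above the 12.1% of 250 bp tiles by less than the KD only share did. Where a site was present, its median best score was 16.9 in shared peaks, 14.8 in KD only and 12.7 in OE only. The best site lay within 50 bp of the peak centre in 80.3% of the KD shared, 67.9% of the KD only and 54.5% of the OE only peaks that had one. At least 2 sites were found in 27.5% of the KD shared peaks with a site, 21.9% of the KD only and 17.3% of the OE only. An exact match, on either strand, to the first 12 of the most frequent bases of the matrix with any base at positions 4, 5, 8 and 9 was found in 8.82% of KD only and 2.501% of OE only peaks, a difference of 6.32 points. Among repeat-masked peaks a site was found in 76.3% of KD only and 43.2% of OE only.

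**Figure D1:**
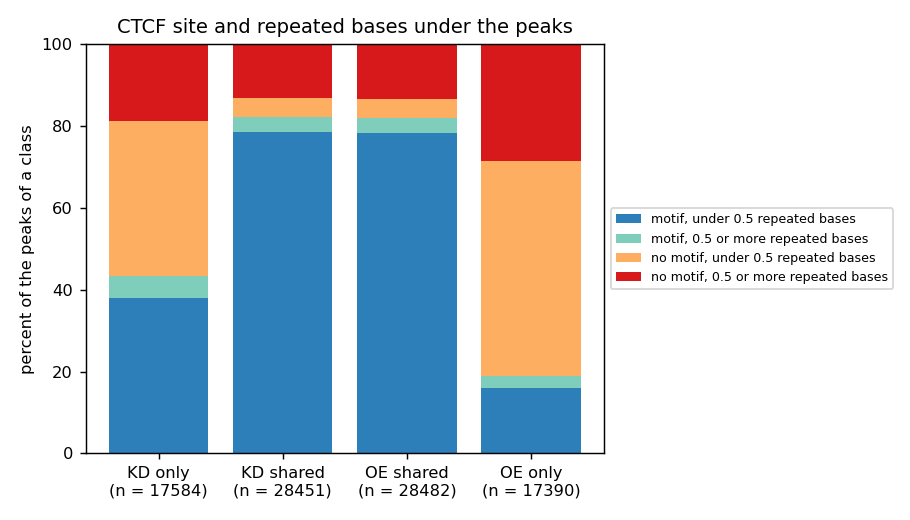
Percent of the peaks of each class (vertical axis) by presence of a CTCF site and by whether at least 0.5 of the bases are repeated (colours), for KD only, KD shared, OE shared and OE only peaks. Peaks with neither a site nor mostly repeated bases made up 37.9% of KD only and 52.5% of OE only peaks, and 4.49% and 4.62% of the shared peaks.

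The share of peaks that were exclusive fell with the motif score in both lists, and fell further in OE. The matrix was learned from peaks found in both KD and OE, which favours such a fall. Of peaks whose best score was under 0, 71.5% in KD and 77.5% in OE were exclusive. Of peaks with a best score of 16 to 20, 19.9% (19.2 to 20.7) in KD and 6.13% (5.67 to 6.62) in OE were exclusive. At a score of 20 or more, 581 KD peaks (11.8%) and 141 OE peaks (3.16%) had no counterpart. Below the site threshold the OE list thus had the higher exclusive share in each score range, and above it the KD list did.

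**Figure D2:**
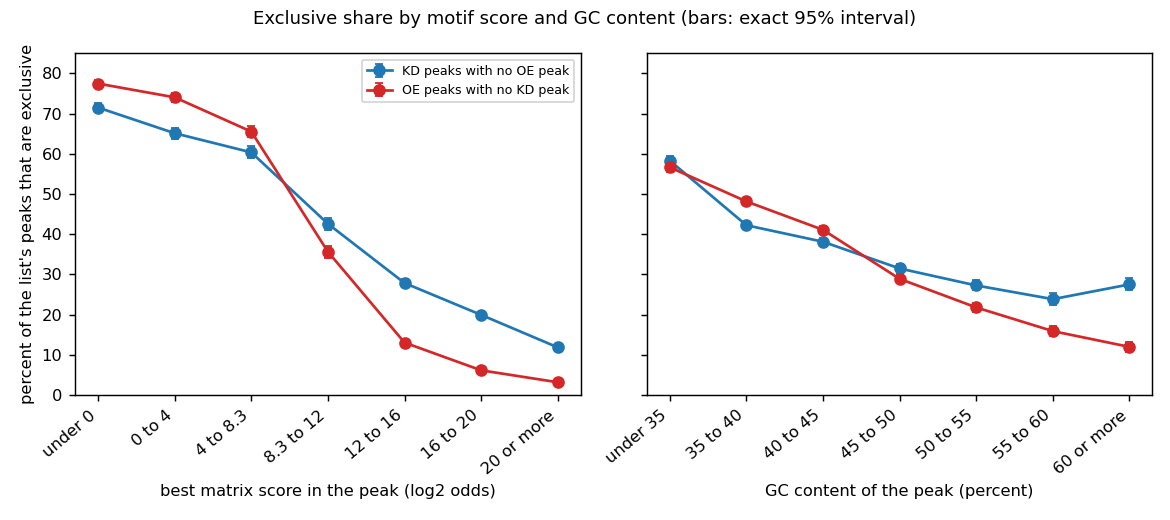
Percent of the KD peaks (blue) and OE peaks (red) that had no peak of the other list, by the best matrix score in the peak (left, log2 odds) and by GC content of the peak (right, percent), with exact 95% intervals. The lines cross near the site threshold of 8.3 on the left, and on the right they part at the GC-rich end, at 27.5% for KD and 11.96% for OE. The matrix was learned from peaks found in both KD and OE, which favours the fall on the left.

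Repeated bases were those covered by any 24-mer with 10 or more copies in hg38, which holds for 23.3% of the bases of these chromosomes. Repeated bases made up 25.6% of KD only, 33.0% of OE only, 18.8% of KD shared and 19.2% of OE shared peaks. Peaks with at least 0.5 repeated bases numbered 4238 in KD only (24.1%, 23.5 to 24.7) and 5468 in OE only (31.4%, 30.8 to 32.1), a difference of -7.34 points (-8.28 to -6.41). Among shared KD peaks without a site, 74.8% were mostly repeated, against 33.3% of the KD only and 35.3% of the OE only peaks without a site. Peaks with neither a site nor mostly repeated bases, 6656 in KD only and 9129 in OE only, were few among the shared peaks (1277 in KD and 1316 in OE).

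GC content was higher in shared than in exclusive peaks. The median GC content was 43.8% in KD shared and 44.1% in OE shared peaks, 39.9% in KD only and 39.4% in OE only, where the chromosomes have 40.9%. The mean was 41.8% (SD 9.25 over peaks) in KD only and 40.6% (SD 7.27) in OE only, a difference of 1.21 points (1.04 to 1.39). Both ends of the range differed: 50.5% of KD only and 55.2% of OE only peaks had under 40% GC, and 929 KD only peaks (5.28%, 4.96 to 5.62) and 348 OE only peaks (2.001%, 1.80 to 2.22) had at least 60% GC. Among peaks with a site the means were 46.5% in KD only and 46.7% in OE only, with a difference of -0.17 (-0.54 to 0.21). Among peaks with neither a site nor mostly repeated bases the means were 37.5% in KD only and 38.8% in OE only, below the 40.9% of the chromosomes and in the opposite order. Among the widest 20000 peaks of each list the difference in mean GC was 0.0330 points (-0.210 to 0.276). Classes were set anew within these cut lists, which gave 10109 KD only and 10097 OE only peaks. A wide peak that met only a narrower peak of the other list thus counted as exclusive there.

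KD only peaks lay more often in promoters than OE only peaks, and less often between genes. A promoter was the 1 kb on either side of the start of any annotated gene, and each peak was placed by its centre. Promoters held 1238 KD only peaks (7.04%, 6.67 to 7.43) and 836 OE only peaks (4.81%, 4.49 to 5.14), a difference of 2.23 points (1.74 to 2.73), with 3.81% of the bases in promoters. Of the shared peaks 8.52% in KD and 8.56% in OE were in promoters. Intergenic sequence held 39.95% of KD only and 42.9% of OE only peaks, a difference of -2.91 points (-3.94 to -1.87). Exons held 5.06% and 4.68%, and introns 47.95% and 47.7%, where both intervals of the difference include 0. Introns were below their 53.7% of bases in each class.

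The promoter difference was smaller within peaks of one kind. Among peaks with a site, 9.99% of KD only and 8.92% of OE only peaks were in promoters, a difference of 1.07 points (-0.12 to 2.25). Among peaks without a site the shares were 4.80% and 3.85%, a difference of 0.947 points (0.422 to 1.47). In the widest 20000 peaks of each list, with classes set anew among them, the promoter difference was 0.377 points (-0.345 to 1.10). In the repeat-masked lists it was 0.891 points (-0.638 to 2.42), and neither interval excludes 0. Seen by feature, 33.8% (32.3 to 35.4) of all KD promoter peaks and 25.5% (24.1 to 27.1) of all OE promoter peaks were exclusive, whereas in introns the shares were 40.1% and 39.7%.

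**Figure D3:**
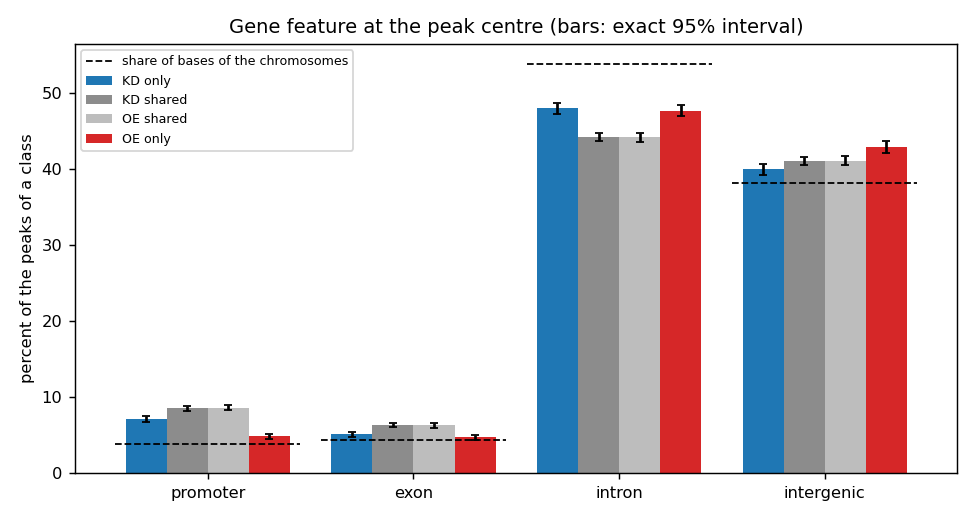
Percent of the peaks of each class whose centre lies in a promoter, exon, intron or intergenic sequence, with exact 95% intervals, and the share of bases of the chromosomes in each feature (dashed lines). The 4 promoter bars run from 4.81% for OE only to 8.56% for OE shared, above the dashed line at 3.81%.

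The balance of the classes differed between chromosomes. Over all 23 chromosomes there were 1.01 KD only peaks per OE only peak. The ratio was lowest on chromosome 21 (0.695, with 219 KD only and 315 OE only peaks) and highest on chromosome 4 (1.39, with 761 and 547). It was also high on chromosomes 15 (1.35) and X (1.30) and low on chromosomes 5 (0.830), 6 (0.846) and 1 (0.853). On 7 chromosomes the exact interval of the ratio lay above 1, and on 6 it lay below 1. The repeat-masked lists had 1 threshold and held 5584 KD only and 2436 OE only peaks in all. There KD only peaks outnumbered OE only peaks on all 23 chromosomes, those with low ratios here included. Split by kind of peak, each kind had 1 direction on at least 22 of the chromosomes, while the ratios varied 2.41-fold for peaks with a site, 1.94-fold for peaks with neither a site nor mostly repeated bases and 2.85-fold for mostly repeated peaks without a site, against 2.001-fold for all. Peaks with a site were more numerous in KD only on all 23 chromosomes, from 1.52 times on chromosome 21 to 3.66 times on chromosome 13. Peaks with neither a site nor mostly repeated bases were more numerous in OE only on 22 of the chromosomes, with a ratio from 0.518 on chromosome 16 to 1.01 on chromosome 4. Mostly repeated peaks without a site ranged from 0.371 on chromosome 21 to 1.06 on chromosome 12.

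**Figure D4:**
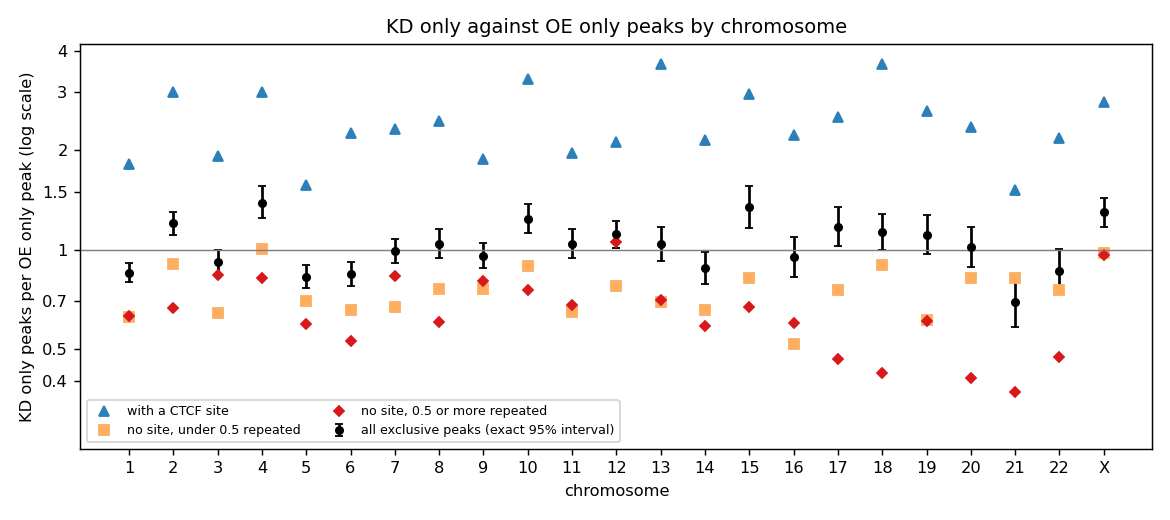
Number of KD only peaks per OE only peak on each chromosome (log scale), for all exclusive peaks with exact 95% intervals (black), for peaks with a CTCF site (triangles), for peaks with no site and under 0.5 repeated bases (squares) and for peaks with no site and at least 0.5 repeated bases (diamonds). Every triangle lies above 1, and the squares lie below 1 except on chromosome 4.

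The density of the peaks with neither a site nor mostly repeated bases varied along the genome in a like way in KD and OE. On chromosome 4 there were 0.817 such KD only and 0.812 such OE only peaks per Mb. The highest densities were 3.79 per Mb in KD only, on chromosome 9, and 5.03 per Mb in OE only, on chromosome 6, which is 4.63 and 6.19 times the lowest. The densities of both classes over the 23 chromosomes had a Pearson r of 0.932 and a Spearman rho of 0.883, as a description of points that share the same cell line and mapping. Exclusive peaks with a site varied less, from 2.05 to 4.67 per Mb in KD only.

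At the scale of 10 Mb, several regions with many OE only peaks relative to KD only lay near centromeres and on the short arm of an acrocentric chromosome. Chromosome 21 had 34 KD only and 83 OE only peaks in its first 10 Mb, and 68 and 152 in the next. Chromosome 14 had 70 and 153 between 10 and 20 Mb, and chromosome 15 had 6 and 32 between 10 and 20 Mb. In the latter, all 38 were mostly repeated and without a site. Away from such repeats, chromosome 5 had 40 KD only and 70 OE only peaks between 150 and 160 Mb, 50 of the OE only peaks with neither a site nor mostly repeated bases. Some other regions near centromeres held more KD only than OE only peaks. Chromosome 12 had 164 KD only and 120 OE only peaks between 30 and 40 Mb. Chromosome X had 77 and 44 between 60 and 70 Mb, and chromosome 18 had 201 and 193 between 10 and 20 Mb. The regions richest in KD only peaks included chromosome 4 at 170 to 180 Mb (43 KD only and 7 OE only), chromosome 18 at 50 to 60 Mb (31 and 9) and chromosome 21 at 20 to 30 Mb (37 and 9). Shared peaks in these 3 regions numbered 42, 30 and 32.

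Both lists had similar spacing, and exclusive peaks were seldom near misses. The median distance from a peak centre to the nearest centre of the same list was 16.8 kb in KD (quartiles 6.72 and 38.4 kb) and 16.1 kb in OE (6.27 and 38.0 kb). Between peaks with a site it was 22.8 kb in KD and 25.4 kb in OE. The median KD only peak lay 19.4 kb from the nearest OE peak, and 5.11% (4.79 to 5.45) lay within 1 kb of one. The median OE only peak lay 17.5 kb from the nearest KD peak, with 5.57% (5.23 to 5.92) within 1 kb. A KD only peak had another KD only peak within 10 kb in 15.1% of cases, and an OE only peak had another of its class in 20.9%.

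OE only peaks formed more runs. Runs of at least 3 peaks of one class, with gaps of at most 10 kb and no peak of the other list between them, numbered 97 in KD only (314 peaks, 1.79% of the class) and 229 in OE only (786 peaks, 4.52%). In these runs 68.5% of the KD only and 78.5% of the OE only peaks were mostly repeated. The OE only run with the most peaks held 10 of them at chr4:190067179-190090503, near the end of the long arm, with a mean GC content of 65.1% and all 10 mostly repeated. The next held 8 at chr4:51796683-51814279 and 7 at chr14:17523656-17540687, the widest of 3 runs of 7, all mostly repeated. The KD only runs with the most peaks held 5 each, at chr4:51717927-51730165, chr10:40895716-40906902 and chr10:40485696-40490055, again all mostly repeated, and overlapped no protein-coding gene. CT peaks overlapped 4, 2 and 3 of the 5 peaks in these KD only runs, and 2 of 10, 0 of 8 and 1 of 7 in the OE only runs named. Input peaks overlapped 2 peaks of the OE only run of 8.

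Neighbouring peaks whose sites all point 1 way were also compared by orientation, since loop anchors tend to carry sites that face each other. Within a list and at most 1 Mb apart, sites faced each other in 23.6% of the KD pairs in which both peaks were shared (22.9 to 24.3, 14628 pairs). The share was 22.4% (20.6 to 24.4, 1913 pairs) where both were KD only and 24.6% (20.7 to 28.8, 460 pairs) where both were OE only. These 3 intervals overlap. Both sites pointed the same way in 50.2% of the shared KD pairs, 57.3% of the KD only pairs and 54.6% of the OE only pairs.

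CT, which neither class was defined by, held more of the KD only than of the OE only peaks. A CT peak overlapped 2855 KD only peaks (16.2%, 15.7 to 16.8) and 1432 OE only peaks (8.23%, 7.83 to 8.65), a difference of 8.002 points (7.32 to 8.68), and 62.9% of the shared peaks of either list. CT peaks covered 0.440% of the bases. Among peaks with a site the shares were 22.2% in KD only and 13.8% in OE only. Among peaks with neither a site nor mostly repeated bases they were 2.78% and 1.19%, while 44.7% of the few shared KD peaks of this kind overlapped a CT peak. The labelled threshold of CT was that of KD, and its part in this difference was not tested. Among peaks of the repeat-masked lists, which had 1 threshold, 28.7% of the KD only and 14.3% of the OE only peaks overlapped a CT peak of unmasked reads. Peaks called on repeat-masked reads of the same library overlapped 20.4% of the KD only and 7.31% of the OE only peaks. Peaks called on repeat-masked reads of the other library, where an exclusive peak should be missing, overlapped 813 KD only peaks (4.62%) and 338 OE only peaks (1.94%).

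H3K4me3, a mark of active promoters, coincided more often with KD only than with OE only peaks, and most often with shared ones. In the KD cells its peaks overlapped 15.4% (14.8 to 15.9) of KD only and 12.2% (11.7 to 12.7) of OE only peaks, a difference of 3.18 points (2.46 to 3.90), against 43.99% of the KD shared peaks. In the CT cells the shares were 15.1% and 12.1%, so the order did not depend on which H3K4me3 library was used. Among peaks with a site, 18.8% of KD only and 18.2% of OE only peaks overlapped H3K4me3 of KD, a difference of 0.544 points (-1.04 to 2.13). Among the widest 20000 peaks of each list, with classes set anew among them, the difference was -0.420 points (-1.67 to 0.827).

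H3K9me3 and H3K27me3 mark silent chromatin. The study's methods and labels name opposite antibodies for these marks, so each list is called by its title. H3K9me3 peaks of CT overlapped 4.04% of KD only and 6.69% of OE only peaks, and H3K27me3 peaks of CT overlapped 2.497% and 4.75%. With the KD libraries of the same marks the shares were 4.16% and 5.38% for H3K9me3, and 2.78% and 2.996% for H3K27me3, where the interval of the difference (-0.57 to 0.14) includes 0. Among exclusive peaks the highest shares were in mostly repeated peaks without a site, at 18.2% of KD only and 21.8% of OE only for H3K9me3 of CT. Of the KD shared peaks of this kind, 68.1% overlapped H3K9me3 of CT and 61.2% H3K4me3 of KD. Input peaks overlapped 42.4% of these shared peaks, against 1.83% of the KD only and 5.16% of the OE only peaks of this kind. In the exclusive peaks of this kind the order depended on the histone library. The KD only minus OE only difference for H3K9me3 was -3.61 points (-5.35 to -1.87) with the CT list and 2.51 points (0.790 to 4.23) with the KD list. For H3K27me3 it was -2.69 points (-4.17 to -1.22) with the CT list and 4.31 points (2.90 to 5.73) with the KD list. Input peaks, which cover 0.0245% of the bases, overlapped 0.415% of KD only and 1.72% of OE only peaks, and 6.50% of the shared peaks of either list.

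**Figure D5:**
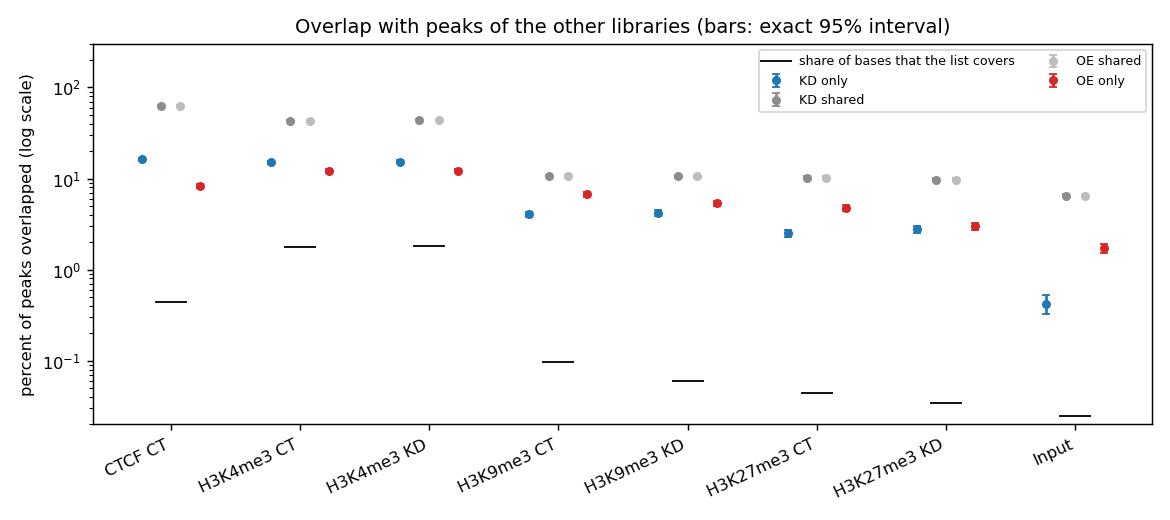
Percent of the peaks of each class overlapped by a peak of the CTCF library of CT, of the histone libraries and of the input (log scale), with exact 95% intervals, and the share of bases that each list covers (black ticks). Shared peaks lie highest in every library, KD only above OE only for CT and H3K4me3, and OE only above KD only for H3K9me3, H3K27me3 and the input.

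Near protein-coding genes, KD had more promoters to itself than OE. Of 19970 protein-coding genes, 786 (3.94%) had a KD peak and no OE peak within 1 kb of the start, 513 (2.57%) had an OE peak and no KD peak, and 1495 (7.49%) had both. The repeat-masked lists gave 435 and 175. Of the 786 genes 92.7% (90.7 to 94.5) carried an H3K4me3 peak of KD within 1 kb of the start, of the 513 genes 86.2% (82.9 to 89.0), and of genes with neither CTCF peak 63.7%. A CT peak of CTCF lay at 18.1% of the 786 starts, 10.1% of the 513 and 62.6% of the 1495. The median distance from a peak centre to the nearest such start was 83.5 kb in KD only, 97.8 kb in OE only and 48.6 kb in shared KD peaks. Peaks over 500 kb from any such start were 19.3% of KD only and 23.3% of OE only.

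The widest exclusive promoter peaks in KD only were a 738 bp peak over the start of PPOX, an enzyme of heme synthesis, a 587 bp peak at TYRO3, a receptor tyrosine kinase, and a 576 bp peak over the start of HARBI1, which derives from a transposase, and centred 551 bp downstream of the start of ATG13, a factor of autophagy initiation. A 566 bp peak at HVCN1, a voltage-gated proton channel, and a 544 bp peak 946 bp upstream of APLN, a peptide hormone, followed. PPOX and TYRO3 also had a CT peak there, and the other 4 genes did not. In OE only the widest were a 724 bp peak at DTWD2, a tRNA-modifying enzyme, a 581 bp peak at GCLM, which acts in glutathione synthesis, and a 522 bp peak at ZNF180, a zinc-finger gene. A 519 bp peak at URI1, a prefoldin-like chaperone, and a 516 bp peak within 1 kb of the starts of both IL23A, a cytokine subunit, and PAN2, a subunit of a deadenylase, followed. The DTWD2 and GCLM peaks overlapped a KD peak of the repeat-masked lists, so that only their unmasked calls were exclusive to OE. None of the 10 peaks had more than 3.24% repeated bases. The peaks at APLN, ZNF180, URI1 and IL23A with PAN2 overlapped no peak of the repeat-masked list of their own library, and the others did.

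Some genes, taken with 10 kb on either side, collected exclusive peaks of mostly 1 class. Counted here are exclusive peaks with no peak of the other list within 1 kb and no input peak. Without that condition STPG2, FNBP1 and TMEM178B had 1 more peak of their class, and STPG2, PCDHA7, PCDHA8, FNBP1 and TMEM178B each had 1 exclusive peak of the other class. For KD only, the most were 8 at TEAD1, a transcription factor of the Hippo pathway, 4 of them with a site, where OE had only 2 peaks, both shared. MYO16, an unconventional myosin, had 7 KD only peaks, 6 with a site, and no OE peak. FRMPD4, a scaffold protein of synapses, and STPG2 had 7 each. PCDHA7 and PCDHA8, which share most of their span, had 6. For OE only, GPR107 and its neighbour FNBP1, a membrane-bending protein, had 11 each, some of them in common, with 1 and 2 that held a site. A run of 6 OE only peaks at chr9:130041196-130058484 spans the boundary of both genes, with none mostly repeated. RABGEF1, an exchange factor for Rab proteins, had 8 OE only peaks, none with a site, and no KD peak. TMEM178B had 7, and THOC2, which acts in mRNA export, and MTHFD1L, a mitochondrial folate enzyme, had 6 each. Sites were found in 4 or more of the KD only peaks of each of the 6 genes, and in at most 2 of the OE only peaks of the other 6. Over the whole classes, 43.2% of KD only and 18.9% of OE only peaks held a site. With peaks in common between neighbours, the genes are not separate cases.

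The clustered protocadherins, neuronal adhesion genes whose promoter choice runs through CTCF, had peaks at most of their starts. Of 53 members, 24 had both KD and OE peaks (45.3%, against 7.49% of all genes), 11 had KD and no OE peak (20.8%, against 3.94% of all genes) and 2 had OE and no KD peak. Sites lay in 7 of the 11 KD only peaks, where 43.2% of all KD only peaks held one. At PCDHA13 the KD only peak of 285 bp held 2 sites with a best score of 21.5, overlapped a CT peak and lay 12.9 kb from the nearest OE peak. At PCDHA1, PCDHA2 and PCDHA7 the best score was 11.9 in each. At PCDHA5 the OE only peak of 283 bp held a site of score 19.8 and overlapped peaks of CT and of the repeat-masked KD list. The zinc-finger genes of chromosome 19 had 11 of 246 members with KD and no OE peak, 5 with OE and no KD peak and 10 with both. These are 4.47%, 2.03% and 4.07% of the list, where 3.94%, 2.57% and 7.49% of all genes were in the same states. Among them, the KD only peak at ZNF274 held 2 sites with a best score of 19.1, and ZNF568 and ZNF829 share 1 KD only peak with 2 sites.

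A list of 7 genes on which CGGBP1 is taken to act included CGGBP1 itself. Of these, 3 had a KD peak and no OE peak (42.9%, against 3.94% of all genes), and none had the reverse. Of the 3, the study names FMR1 and HSF1 as under CGGBP1 control, and not DNMT3A. At DNMT3A, a cytosine methyltransferase, the peak of 228 bp had 74.1% GC and overlapped a CT peak. At FMR1 the peak of 259 bp had 45.9% GC and lay 2.03 kb from an OE peak. At HSF1, the heat shock factor, the peak of 235 bp lay 23.5 kb from the nearest OE peak. None of the 3 peaks held a CTCF site or overlapped a peak of the repeat-masked KD list, and none of their bases were repeated. Among 15 enzymes and readers of cytosine methylation, DNMT3A and TET2, a methylcytosine dioxygenase, had KD and no OE peak. Among 20 genes of H3K9 and H3K27 methylation, SETDB2 had a KD only peak with a site of score 15.5, and EHMT1 had an OE only peak 1.35 kb from a KD peak.

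Over all protein-coding genes, 7.49% had both peaks, 3.94% KD and no OE peak and 2.57% OE and no KD peak, against which the counts of the other lists are read. Of 21 genes of CTCF and cohesin, 4 had both peaks (19.05%: CHD8, ESCO1, STAG1 and STAG2), and HDAC8, the deacetylase that recycles cohesin, had a KD only peak without a site. Among 20 kidney development factors, WT1 and HOXD11 had KD only peaks, both without a site. HOXD11 was the 1 of 39 HOX genes with a peak in 1 list alone, and 5 had both. Of 30 imprinted genes matched, HM13 had a KD only peak with a site of score 16.7, and none had an OE only or shared peak within 1 kb of the start. Of 81 cytosolic ribosomal protein genes, 16 had both (19.8%), 4 had KD and no OE peak (4.94%: RPL39, RPS19, RPS20 and RPSA) and 1 had the reverse (1.23%: RPL4). Of 79 replication-dependent histone genes, 5 had KD and no OE peak (6.33%) and 2 the reverse (2.53%), and of 400 olfactory receptor genes 3 had each (0.75%), below all genes. These counts are small, and a list was not compared with other lists.

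At the loci that the study discusses, the H19 gene with 20 kb on either side had 3 KD only peaks and no OE peak. One of them, chr11:1999698-2000074, had a best score of 6.57. The others, at chr11:2002147-2002378 and chr11:2002886-2003117, had best scores of 7.9 and 6.57. All 3 scores were under the site threshold, and none of the 3 peaks overlapped a CT peak or a peak of the repeat-masked KD list. The first of the 3 lay within a CTCF site that the study lists for H19. Its other listed sites for H19, also inside the window, had no peak in either list. In a 124 kb window over the beta-globin genes and the locus control region, KD and OE shared a peak with a site of score 18.05 at chr11:5291300-5291583 in KD and a wide peak at the HBB gene (1133 bp in KD and 1230 bp in OE) without one. OE alone had a peak at chr11:5235825-5236188. The window ended at chr11:5329395, short of a CTCF site that the study lists for this locus. Another listed site, inside the window, had no peak in either list. At the CGGBP1 gene with 10 kb on either side, both lists had a shared peak in an exon, 348 bp wide in KD and 581 bp wide in OE, without a site and also present in CT. An intronic shared peak had a site of score 14.97. Between them lay 3 intronic KD only peaks, 1 of them with a site just above the threshold (8.41), and no OE only peak. The OE cells carried a CGGBP1 cDNA construct, reads from which cannot be told apart from reads of the gene's exons in these lists.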

How the data were processed

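The deposited files give peak positions in bp on hg38 as the authors called them, with no other unit. Per the labels and the study's methods, single-end reads were mapped with bowtie2 and peaks were called with MACS2 per library. The methods give a p threshold of 0.005 for all unmasked CTCF lists, where the labels give 0.0025 for CT and KD. Starts were read as counted from 0. The columns of 6 deposited lists of exclusive peaks were not used, as classes were computed here. The members, gene lists and tests were chosen with earlier results of these data known.

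Peaks on chromosomes 1 to 22 and X were compared by overlaps of at least 1 bp. Genes came from GENCODE release 44 and sequences from a reference of the same build. Features, GC content, repeated 24-mers, matrix sites and distances were computed with Python 3.11.15, numpy, pandas and scipy, and tested on simulated data. RepeatMasker and MEME, which the authors used, were not run. Genes were named by these rules: the 6 per class whose start had the widest exclusive peak (no peak of the other list within 1 kb, no input peak), the 6 with the most such peaks within 10 kb and no such peak of the other class, the 3 longest runs per class (read as those with the most peaks), genes of 12 fixed lists with an exclusive promoter peak, and 3 loci. A list gene that these rules name is not reported here. The widest promoter peaks lay over exons, so the printed stretches were taken from other peaks, a choice made after the data were seen. Alternatives changed the overlap rule, lists, promoter width, site threshold and repeat minimum.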

Additional observations from a re-analysis of the deposited data

Results flagged for a closer look

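Peaks outside chromosomes 1 to 22 and X entered no comparison and stood above the control condition in KD. They made up 1597 of 47632 KD peaks (3.35%, exact 95% interval 3.19 to 3.52), 1344 of 47216 OE peaks (2.85%) and 1286 of 42978 CT peaks (2.99%, 2.83 to 3.16). Each condition has 1 library, and the difference was not tested.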

How the results depend on the processing

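Of 54 alternative values for 16 results, 20 stayed within the counting interval of the value reported (within 1.5 times for a count) and 34 moved outside it. None of the differences among them changed sign. The percents shared, distances and counts among them have no sign to change. Outside the 54 alternatives, the H3K4me3 difference of 3.18 points turned to -0.420 (-1.67 to 0.827) for the widest 20000 peaks. Where peaks were left out by width or by input overlap, classes were set anew among the peaks kept. Peaks shared in the full lists could thus count as exclusive there. The percent of KD and of OE peaks shared was 58.9 and 59.1 where the overlap had to span 0.5 of each peak, 62.7 and 63.1 with gaps of up to 500 bp, 76.2 and 88.0 in repeat-masked lists, 49.5 and 49.5 for the widest 20000 peaks, and 60.3 and 60.9 without input peaks. The KD only minus OE only difference in peaks with a site was 19.3 points at p below 0.00001, 6.32 for the core consensus, 15.8 for the widest peaks, 33.1 in repeat-masked lists and, added after the data were seen, 25.7 for peaks of at least 250 bp. The promoter difference was 1.29 points for protein-coding genes, 0.377 for the widest peaks, 0.891 in repeat-masked lists and 1.65 for peaks of at least 250 bp. The GC difference was 0.0330 for the widest peaks and 1.76 in repeat-masked lists. KD only peaks outnumbered OE only peaks on 23 chromosomes in repeat-masked lists, against 13. Within 2.5 kb of starts there were 1237 genes with KD and not OE peaks, 924 with the reverse and 2513 with both, and in repeat-masked lists 435 and 175 for the exclusive ones. The H3K4me3 difference was 1.4998 where at least 0.5 of the peak was covered, the H3K9me3 difference -1.98 without input peaks, and the difference in repeated bases -6.01 for 24-mers found at least 100 times. Median spacing was 22.8 kb in KD and 25.4 kb in OE for peaks with a site, and 17.9 and 17.3 kb without input peaks. The cause of these shifts was not tested. No paired analysis was possible because each condition has 1 library. Read depth and peak height, which would limit these comparisons, are not in the lists. Mapped reads per library, as the study reports them, were higher in KD than in OE, and their part was not tested.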
